A study of Mus musculus with 8 samples.

Results

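Tcf7, Lef1, Gata3, Bcl11b and Zbtb16 are 5 genes for transcription factors of the T-cell lineage, and they were taken by gene name from the 16434 genes of the deposited expression table, where all 5 are listed. Poly(A) RNA had been sequenced from 8 sorted bone marrow populations of C57BL/6 mice, with an age of 8 to 10 weeks on the labels. The leukaemias came from mice with N-Myc overexpression and were sorted as GFP-positive cells: B-ALL (B220+GFP+), T-ALL (CD3+GFP+), AML (Mac1+Gr1+GFP+) and AUL (B220-CD3-Mac1-Gr1-GFP+). Their counterparts from normal bone marrow were B cells (B220+), T cells (CD3+), myeloid cells (Mac1+Gr1+) and lineage-negative cells (B220-CD3-Mac1-Gr1-). B-ALL and T-ALL are acute lymphoblastic leukaemias, AML is acute myeloid leukaemia and AUL is acute undifferentiated leukaemia. Each group had 1 library, so a difference between a leukaemia and its normal counterpart has no replicate check and no p-value. How N-Myc and GFP were introduced, which promoter drove them and how many mice gave each library are not given in the sources used here.

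The 5 proteins act at successive steps of T-cell development. TCF-1 (from Tcf7) and LEF-1 (from Lef1) are related HMG-box proteins that bind the same DNA words, can take beta-catenin as a co-activator or Groucho/TLE proteins as co-repressors, and are induced or used in early thymocytes, TCF-1 downstream of Notch. GATA-3 is a zinc-finger protein needed by the earliest T-cell precursors and later by CD4 and T helper 2 cells. BCL11B, a zinc-finger protein, completes commitment to the T lineage and holds off other fates. PLZF (from Zbtb16) is a BTB zinc-finger protein that directs innate-like T cells, such as natural killer T cells, and precursors of innate lymphoid cells, and it is also made in some haematopoietic progenitors.

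Tcf7 and Lef1 are paralogues, so the stretch of coding sequence in which they are most alike is shown, because reads from it decide whether the levels of the pair can be kept apart. It is a 210-base stretch of the HMG box from the GENCODE vM21 transcripts, at coding bases 562 to 771 of Tcf7 and 889 to 1098 of Lef1, and capitals mark the bases at which the pair differ.
Tcf7: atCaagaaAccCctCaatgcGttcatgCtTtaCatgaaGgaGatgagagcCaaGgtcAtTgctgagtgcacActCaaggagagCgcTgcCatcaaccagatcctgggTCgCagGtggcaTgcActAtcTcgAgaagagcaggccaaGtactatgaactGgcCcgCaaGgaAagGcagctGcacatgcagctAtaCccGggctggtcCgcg
Lef1: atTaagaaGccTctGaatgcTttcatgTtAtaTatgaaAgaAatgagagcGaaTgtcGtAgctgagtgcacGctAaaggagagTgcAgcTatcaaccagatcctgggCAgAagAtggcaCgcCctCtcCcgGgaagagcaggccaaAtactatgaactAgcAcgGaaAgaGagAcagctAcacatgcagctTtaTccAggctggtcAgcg
The stretches were identical at 170 of 210 bases (81.0%) and differed at 40. Of 70 codons, 68 encode the same residue, and 35 of these 68 codons differ in their bases between the pair. The longest run of bases shared by annotated transcripts of Tcf7 and Lef1 was 18, well under the length of the 150-base reads. For Lef1 and Tcf7l1 the longest shared run was 23 bases, for Gata3 and Gata2 it was 17, and for Bcl11b and Bcl11a it was 26.

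Tcf7, Gata3 and Bcl11b had the most alike levels of the 5 genes across the 8 libraries, and a promoter window of each is shown. Windows run from 250 bases before to 50 bases after a RefSeq start on GRCm38.p6, and capitals mark the motif words found. RefSeq windows were matched for 4 of the 5 genes, 8 windows in all, and Zbtb16 was not matched. On both strands, the words searched for TCF/LEF factors were CTTTGAA or CTTTGAT or CTTTGTT. For GATA factors they were AGATAA or TGATAA, which the end of CTTTGAT can overlap. For RUNX factors the word was TGTGGT, and for E proteins the words were CAGCTG or CAGGTG. The Tcf7 window is that of the second of its 2 starts, chr11:52282546-52282845 on the minus strand. The Gata3 window is chr2:9878551-9878850 and the Bcl11b window is chr12:108003365-108003664, both on the minus strand.
Tcf7: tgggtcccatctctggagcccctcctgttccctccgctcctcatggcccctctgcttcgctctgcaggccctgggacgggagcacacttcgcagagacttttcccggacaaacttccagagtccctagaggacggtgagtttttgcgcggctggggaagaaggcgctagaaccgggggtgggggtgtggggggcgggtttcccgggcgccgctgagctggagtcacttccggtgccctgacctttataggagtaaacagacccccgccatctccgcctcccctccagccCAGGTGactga
Gata3: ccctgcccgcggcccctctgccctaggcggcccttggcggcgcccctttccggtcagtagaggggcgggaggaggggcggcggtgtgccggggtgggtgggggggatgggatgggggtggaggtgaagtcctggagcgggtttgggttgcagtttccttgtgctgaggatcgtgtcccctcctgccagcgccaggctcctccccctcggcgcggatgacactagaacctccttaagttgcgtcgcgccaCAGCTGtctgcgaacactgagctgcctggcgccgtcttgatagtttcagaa
Bcl11b: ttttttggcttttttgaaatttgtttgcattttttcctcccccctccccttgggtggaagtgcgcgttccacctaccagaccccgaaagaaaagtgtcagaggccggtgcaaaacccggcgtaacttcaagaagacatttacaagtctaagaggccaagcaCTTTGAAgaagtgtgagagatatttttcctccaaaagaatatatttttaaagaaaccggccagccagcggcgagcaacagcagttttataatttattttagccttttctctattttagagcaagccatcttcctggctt
The Bcl11b window held 1 TCF/LEF word, which began 89 bases before the start, and no other word. The Tcf7 and Gata3 windows each held 1 E-protein word, which began 39 bases after the Tcf7 start and 1 base before the Gata3 start. Among 32851 mouse promoter windows of the same length, 13.9% held a TCF/LEF word, 18.6% a GATA word, 16.8% a RUNX word and 32.9% an E-protein word. A match describes the letters of a window and is not a binding site.

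Levels are the deposited FPKM values, which scale a gene's fragments by transcript length and by the total of the library. The libraries held 33818545 (AUL) to 52280421 (normal myeloid) fragments, and the 5 genes were read from 2 fragments (Bcl11b in normal B cells) to 80326 fragments (Tcf7 in T-ALL). Intervals are 95% Poisson or conditional binomial intervals for these fragments and cover counting error only. Mycn had 719 to 1858 FPKM in the 4 leukaemias and 0.518 to 5.24 FPKM in the 4 normal libraries. The sorting labels were set against marker lists, and AUL went against its gate at the RNA level. The summed FPKM of 9 T-cell markers (Cd3d, Cd3e, Cd3g, Cd247, Cd5, Cd6, Lat, Trac and Lck) was 2402 in T-ALL, 1730 in AUL, 298.3 in B-ALL and 55.5 in AML, against 2955 in normal T cells, 66.6 in normal lineage-negative cells, 46.1 in normal B cells and 19.2 in normal myeloid cells. None of the 9 was at 0 in any library, and none of 7 stem and progenitor markers reached 1 FPKM in AUL. B-ALL carried 1812 FPKM over 7 B-cell markers beside its T-cell markers, against 4275 in normal B cells. The normal T-cell library carried 643.1 FPKM of B-cell markers and 538.3 of 6 basophil and mast-cell markers, and the normal lineage-negative library carried 681.9 FPKM of B-cell markers and 2685 of basophil and mast-cell markers.

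Per transcript length, Tcf7 had the highest level of the 5 genes in all 4 leukaemias, and its level was higher in each leukaemia than in the normal cells of the same gate. The gene (ENSMUSG00000000782) lies at mm10 chr11:52252371-52283014. It had 882.4 FPKM in T-ALL, 522.5 in AUL, 84.98 in B-ALL and 15.9 in AML, against 449.7 in normal T cells, 9.74 in normal lineage-negative cells, 6.81 in normal B cells and 0.872 in normal myeloid cells. T-ALL and AUL stood above normal T cells, and the AUL level was 1.16 times that of normal T cells (95% counting interval 1.15 to 1.18). The fold against the normal cells of the gate was 53.6 in AUL (50.2 to 57.3), 18.2 in AML (14.8 to 22.6), 12.5 in B-ALL (11.5 to 13.6) and 1.96 in T-ALL (1.94 to 1.99). Every neighbouring pair in the order of the 8 libraries differed beyond counting error. The gene overlaps Gm26551 on the same strand and A630014C17Rik on the other, at 0.165 to 7.04 FPKM and 0 to 4.48 FPKM. Whether counting used the strand is not given in the sources used here.

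Lef1, the paralogue, was lower in T-ALL than in normal T cells, where Tcf7 was higher, and had the same direction as Tcf7 in the other 3 gates. The gene (ENSMUSG00000027985) lies at mm10 chr3:131110471-131224356. It had 23.0 FPKM in AUL, 20.2 in T-ALL, 12.8 in B-ALL and 0.601 in AML, against 7.55 in normal lineage-negative cells, 66.1 in normal T cells, 10.6 in normal B cells and 0.290 in normal myeloid cells. Normal T cells had the highest level, and both myeloid-gate libraries were under 1 FPKM. Lef1 was 3.27-fold lower in T-ALL (3.11 to 3.44), 3.05-fold higher in AUL (2.81 to 3.32) and 1.22-fold higher in B-ALL (1.12 to 1.32) than in the normal cells of the gate. In AML it was 2.07-fold higher (1.36 to 3.20), a log2(FPKM + 1) difference of 0.31 that became 0.06 after median-ratio scaling of the libraries. In bulk RNA, fewer cells of a type and less RNA per cell cannot be told apart, and this holds for every level given here. Neighbours in the order of the 8 Lef1 levels all differed beyond counting error.

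**Figure D1:**
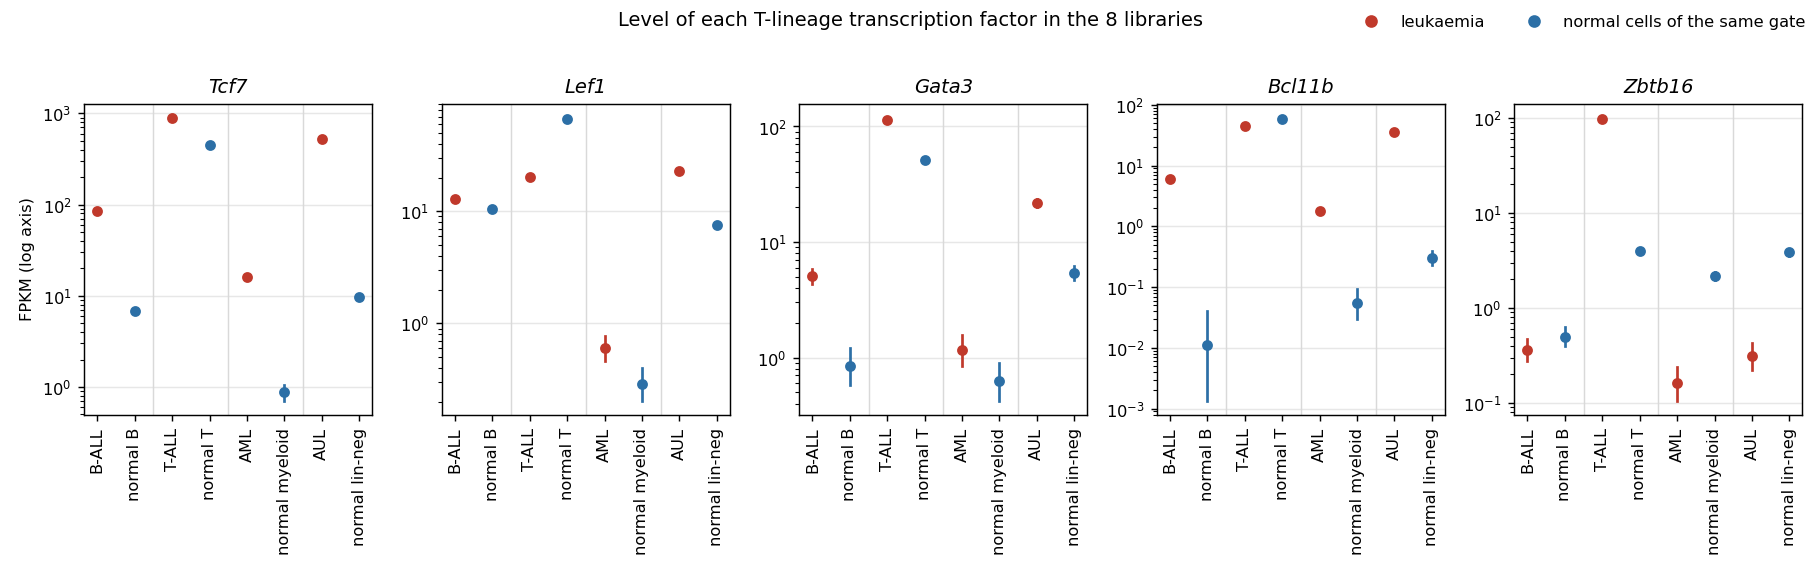
FPKM of the 5 genes (1 panel each, log axis) in the 8 libraries, each leukaemia (red) left of its normal counterpart (blue), with vertical lines for the 95% counting interval. Tcf7 is higher in each leukaemia than in its normal counterpart, whereas Zbtb16 stands at 98.4 FPKM in T-ALL and at or under 3.98 FPKM elsewhere.

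The ratio of Tcf7 to Lef1 was higher in each leukaemia than in its normal counterpart. It was 43.7 in T-ALL (95% counting interval 41.8 to 45.6) against 6.80 in normal T cells (6.62 to 6.99). In AML it was 26.4 (20.5 to 34.7) against 3.005 in normal myeloid cells (2.04 to 4.52), where Lef1 rested on 62 fragments in AML and 37 in normal myeloid cells. In AUL it was 22.7 (21.7 to 23.8) against 1.29 in normal lineage-negative cells (1.17 to 1.42), and in B-ALL it was 6.62 (6.25 to 7.03) against 0.645 in normal B cells (0.581 to 0.715). The intervals of leukaemia and normal library did not overlap in any of the 4 gates. These are ratios of FPKM and depend on the transcript lengths used, but the comparison of 1 ratio between libraries does not.

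**Figure D2:**
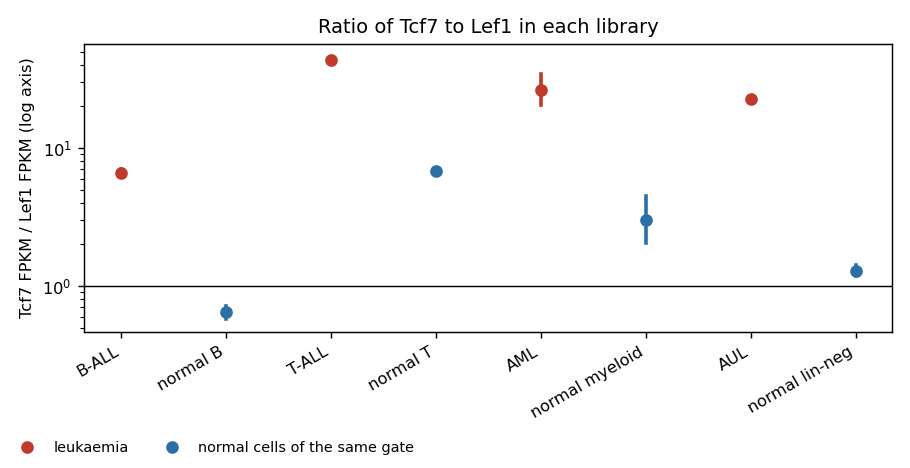
Tcf7 FPKM divided by Lef1 FPKM (log axis) in the 8 libraries, leukaemias in red left of their normal counterparts in blue, with 95% counting intervals as vertical lines and a line at 1. With the mean transcript lengths used, normal B cells alone lie under 1, at 0.645, and T-ALL is highest at 43.7. Scaled by the union of all exons instead, normal B cells had 5.46 FPKM of Tcf7 and 2.93 of Lef1.

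Gata3 was higher in B-ALL, T-ALL and AUL than in their normal counterparts, with T-ALL far above the others, while its difference in AML was close to 0 under another scaling. The gene (ENSMUSG00000015619) lies at mm10 chr2:9857078-9890034. It had 114.8 FPKM in T-ALL, 21.7 in AUL, 5.05 in B-ALL and 1.16 in AML, against 51.5 in normal T cells, 5.41 in normal lineage-negative cells, 0.849 in normal B cells and 0.627 in normal myeloid cells. The fold was 5.94 in B-ALL (4.05 to 8.98), 4.02 in AUL (3.45 to 4.71), 2.23 in T-ALL (2.11 to 2.36) and 1.85 in AML (1.14 to 3.05). On the log2(FPKM + 1) scale the AML difference was 0.41 with the deposited scaling and 0.01 after median-ratio scaling. AUL and T-ALL differed by 5.28-fold for Gata3 with AUL lower, whereas they differed by 1.69-fold for Tcf7. Pairs that did not differ beyond counting error were B-ALL and normal lineage-negative cells, AML and normal B cells, and normal B and normal myeloid cells.

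Bcl11b was near 0 in the normal cells outside the T gate and was read from at least 342 fragments in every leukaemia. The gene (ENSMUSG00000048251) lies at mm10 chr12:107910403-108003602. It had 45.5 FPKM in T-ALL, 35.2 in AUL, 5.99 in B-ALL and 1.79 in AML, against 59.7 in normal T cells, 0.304 in normal lineage-negative cells, 0.0111 in normal B cells and 0.0552 in normal myeloid cells. The last 3 values rest on 61, 2 and 13 fragments. The fold was 116 in AUL (89.98 to 152), 32.5 in AML (18.8 to 61.7) and 539 in B-ALL, where the 2 fragments of normal B cells leave an interval of 149 to 4453. In T-ALL the level was 0.761 times that of normal T cells (0.740 to 0.784). Neighbours in the order of the 8 levels all differed beyond counting error.

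Zbtb16 was a T-ALL gene in these libraries and differed from the other 4. The gene (ENSMUSG00000066687) lies at mm10 chr9:48654297-48836222. It had 98.4 FPKM in T-ALL, 0.361 in B-ALL, 0.310 in AUL and 0.161 in AML, against 3.98 in normal T cells, 0.5001 in normal B cells, 3.85 in normal lineage-negative cells and 2.19 in normal myeloid cells. Zbtb16 was 24.7-fold higher in T-ALL (22.7 to 27.0), 13.6-fold lower in AML (9.14 to 21.0) and 12.4-fold lower in AUL (9.003 to 17.5) than in the normal cells of the gate. AUL, which was near T-ALL for Tcf7 and Bcl11b, had a Zbtb16 level 317-fold lower than T-ALL (233 to 444). Normal T and normal lineage-negative cells did not differ beyond counting error, nor did normal B cells and B-ALL, nor B-ALL and AUL.

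The 8 markers of innate lymphoid and innate-like T cells were set beside Zbtb16. Their summed level was 149.6 FPKM in T-ALL and 225.8 FPKM in normal T cells, with 3 of 8 at 1 FPKM or more in T-ALL and 8 of 8 in normal T cells. Il17rb, a receptor subunit for interleukin 25 found on innate lymphoid cells and on a subset of natural killer T cells, made up 135.7 FPKM of the T-ALL sum, against 4.46 FPKM in normal T cells. Rora, a nuclear receptor of innate lymphoid cells, had 3.71 FPKM in T-ALL and 15.8 FPKM in normal T cells. In AUL the 8 markers summed to 9.05 FPKM, against 68.2 FPKM in normal lineage-negative cells. Their part in the Zbtb16 levels was not tested.

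Levels of different genes depend on the transcript length used, which here was the mean of the annotated transcripts. For Gata3 and Lef1 the union of the exons was 4.35 and 3.602 times that mean, for Bcl11b, Zbtb16 and Tcf7 it was 1.80, 1.39 and 1.25 times. Per kilobase of exon union, T-ALL had 708.2 FPKM of Tcf7, 71.0 of Zbtb16, 26.4 of Gata3, 25.3 of Bcl11b and 5.61 of Lef1. Tcf7 thus stayed above the other 4 on both scales, and Gata3 changed place with Zbtb16 in T-ALL.

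Differences within each gate were put on the log2(FPKM + 1) scale, leukaemia minus normal. A gene was called at an absolute difference of at least 1 with at least 1 FPKM in the higher library. In B-ALL against normal B cells, 3 of the 4 genes tested were called higher and 0 lower, where 40.0% of all listed genes tested were called in either direction, 18.2% higher and 21.9% lower. Tcf7 differed by 3.46, Bcl11b by 2.79 and Gata3 by 1.71, Lef1 by 0.26 was not called, and Zbtb16 was under 1 FPKM in both libraries. In T-ALL against normal T cells, Zbtb16 (4.32) and Gata3 (1.14) were called higher and Lef1 (-1.66) lower of 5 tested, where 46.1% of genes were called, 22.1% higher and 24.0% lower. Tcf7 (0.97) and Bcl11b (-0.39) were not called. After median-ratio scaling of the libraries Gata3 differed by 0.97 in T-ALL and was no longer called.

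In AML against normal myeloid cells, Tcf7 (3.17) and Bcl11b (1.40) were called higher and Zbtb16 (-1.46) lower of 4 tested, where 70.0% of genes were called, 43.3% higher and 26.7% lower. The counts of members called lie near that share, and the median of all genes was 0.56 in this gate. Median-ratio scaling moved that median to -0.35 and the share of calls that were higher to 40.0%, against 61.8% with the deposited scaling, and the calls of the 5 genes stood under both. Gata3 (0.41) was not called, and Lef1 (0.31) was under 1 FPKM in both libraries. In AUL against normal lineage-negative cells, 4 of 5 genes were called higher and 1 lower, where 43.1% were called, 13.6% higher and 29.5% lower. The differences were 5.61 for Tcf7, 4.80 for Bcl11b, 1.83 for Gata3, 1.49 for Lef1 and -1.89 for Zbtb16. The median over the 5 genes was 1.71 in B-ALL, 0.97 in T-ALL, 0.41 over 5 genes in AML and 1.83 in AUL, against -0.02, 0.03, 0.56 and -0.18 over all genes tested. The T-cell markers moved in the same gates, their sum being 1730 FPKM in AUL and 66.6 FPKM in normal lineage-negative cells, and 298.3 FPKM in B-ALL and 46.1 FPKM in normal B cells, and their part in these differences was not tested.

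**Figure D3:**
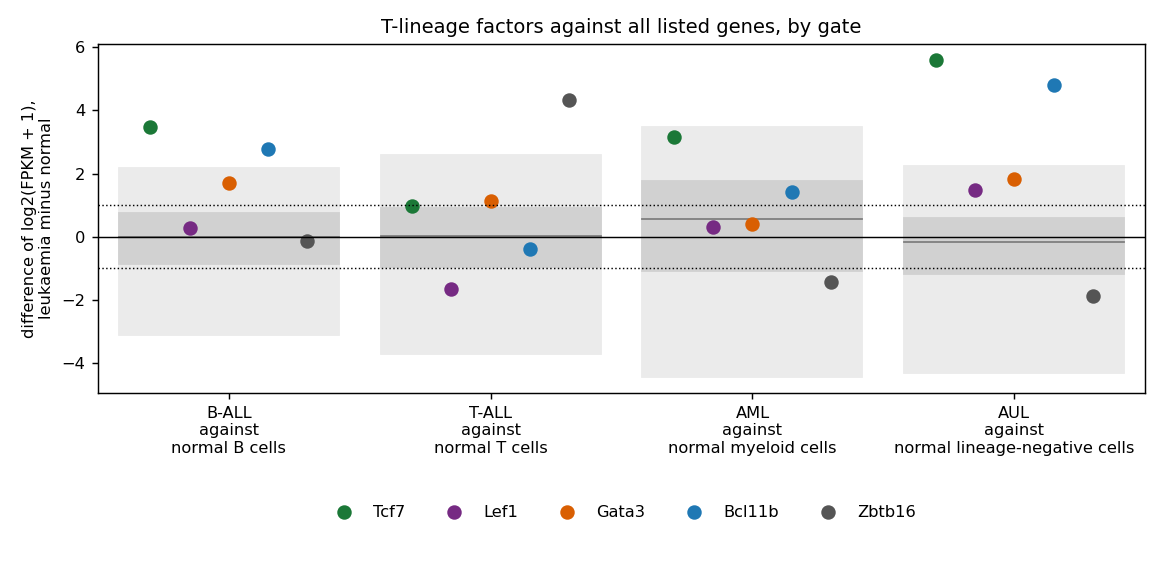
Difference of log2(FPKM + 1), leukaemia minus normal, of the 5 genes in the 4 gates. Light and dark grey boxes span the central 95% and the central 50% of all genes tested, the grey line is their median, and dotted lines mark differences of 1 and -1; Tcf7 and Bcl11b in AUL (5.61 and 4.80) lie above the light box.

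AUL was also set against T-ALL and against normal T cells, because of its T-cell marker sum. The sum was 1730 FPKM in AUL (Lck 626.4), 2402 in T-ALL, 2955 in normal T cells and 66.6 in normal lineage-negative cells. Against T-ALL, 0 of the 5 genes were called higher and 2 lower, where 21.0% of genes were called, 9.62% higher and 11.4% lower. Zbtb16 (-6.25) and Gata3 (-2.35) were lower, and Tcf7 (-0.75), Bcl11b (-0.36) and Lef1 (0.18) were not called. Against normal T cells, Zbtb16 (-1.93), Lef1 (-1.48) and Gata3 (-1.21) were called lower, where 45.5% were called, 19.7% higher and 25.8% lower, and Tcf7 (0.22) and Bcl11b (-0.74) were not. Of the T-cell identity genes tested, 1 of 16 was called higher and 6 lower in AUL than in T-ALL (list median -0.44, all genes -0.11). Against normal T cells, 0 of 18 were higher and 11 lower (list median -1.23, all genes -0.15). These comparisons share the AUL library, so their values are given side by side only.

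Over the 4 gates together, Tcf7 alone of the 5 genes passed in a limma fit blocked on the gate. Of 11071 genes fitted, 408 (3.69%) passed, 140 higher (1.26%) and 268 lower (2.42%). Tcf7 rose by 3.30 on the log2 scale (SE 0.667, adjusted p = 0.0456) and was higher in 4 of 4 gates, with a mean of the 4 differences of 3.30 ± 1.90 (SD, n = 4). An exact sign-flip permutation test over the gates, two-sided, gave p = 0.125, its lower limit with 4 gates. The limma call was lost in 6 of 8 alternatives, among them each of the 4 fits that left out 1 gate, in which Tcf7 had an adjusted p of 0.0606 to 0.0986. Gata3 had a limma difference of 1.27 and an adjusted p of 0.0984, and was higher in 4 of 4 gates with the deposited scaling, of which AML stood at 0.01 after median-ratio scaling. Bcl11b had a limma difference of 2.15 (adjusted p = 0.109), Zbtb16 0.21 (0.872) and Lef1 0.10 (0.896).

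The level of each gene was divided by the T-cell marker sum of its library, to put libraries with different levels of these markers side by side. Lck made up 31.8 of the 46.1 FPKM in normal B cells, and Cd3d made up 10.2 of the 19.2 FPKM in normal myeloid cells. The makeup of the sum thus differed, and it is not a like measure of T-cell RNA in all libraries. Tcf7 had 36.7 FPKM per 100 FPKM of T-cell markers in T-ALL, 30.2 in AUL, 28.6 in AML and 28.5 in B-ALL, against 15.2 in normal T cells, 14.6 in normal lineage-negative cells, 4.53 in normal myeloid cells and 14.7 in normal B cells. All 4 leukaemias were above all 4 normal libraries in this ratio, which for normal B and normal myeloid cells rests on those low sums. The sum was also low in AML (55.5 FPKM, Lat 21.3) and in normal lineage-negative cells (66.6 FPKM, Lck 26.0), so their ratios have the same limit. Bcl11b had 3.23 per 100 in AML, 2.04 in AUL, 2.01 in B-ALL and 1.89 in T-ALL, against 0.287 in normal myeloid cells, 0.457 in normal lineage-negative cells, 0.0241 in normal B cells and 2.02 in normal T cells. On this scale T-ALL, AUL and B-ALL lay at 1.89 to 2.04, near normal T cells. Gata3 had 4.78 in T-ALL, 2.09 in AML, 1.69 in B-ALL and 1.26 in AUL, against 1.74 in normal T cells, 3.26 in normal myeloid cells, 1.84 in normal B cells and 8.12 in normal lineage-negative cells, so leukaemia and normal overlapped. Lef1 had 0.841 to 4.30 in the 4 leukaemias, against 1.51 to 22.9 in the 4 normal libraries, and Zbtb16 had 0.0179 to 4.10 in the leukaemias and 0.135 to 11.4 in the normal libraries, so these overlapped too.

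**Figure D4:**
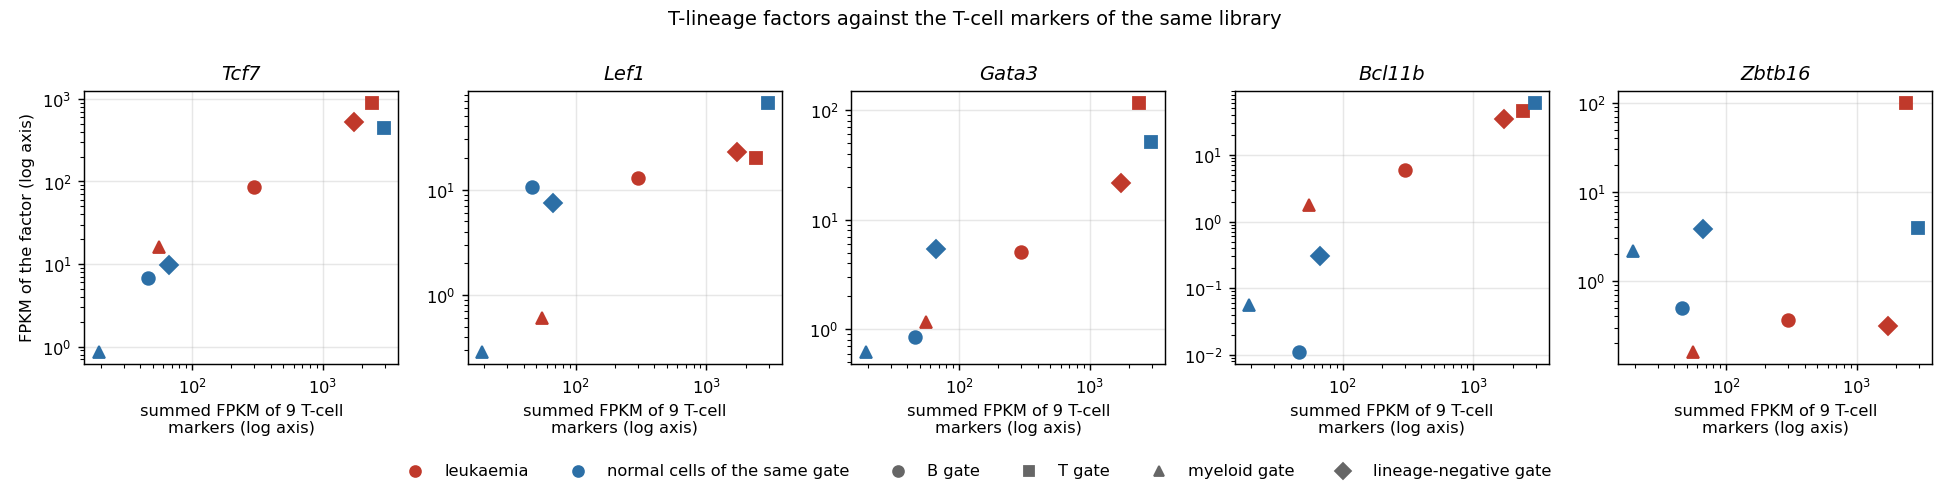
FPKM of each of the 5 genes against the summed FPKM of 9 T-cell markers in the same library (both log axes), 1 panel per gene, leukaemias in red and normal cells in blue, with a symbol for each gate. Tcf7, Lef1, Gata3 and Bcl11b are highest in the 3 libraries with the highest marker sums. Zbtb16 is highest in T-ALL and at most 0.361 FPKM in the other 3 leukaemias.

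The genes most like each of the 5 over the 8 libraries were found by Pearson correlation of log2(FPKM + 1) among 7058 other genes with at least 10 FPKM somewhere. The 8 points are single libraries that differ in depth and are paired by gate, so the correlations are a description and carry no test. Tcf7 was most like Zap70 (r = 0.992), a kinase of T-cell receptor signalling, and next like the receptor-signalling adaptor Lat (0.986) and the HMG-box factor Tox (0.985). Bcl11b was most like Trgj2 and Cd3g (0.988 each) and Cd3e (0.987), parts of the T-cell receptor complex and its gene segments. Lef1 was most like Cecr5 (0.993) and the integrin Itga4 (0.986), Gata3 like Btbd11 (0.980) and the interleukin 12 receptor subunit Il12rb1 (0.973), and Zbtb16 like the tensin Tns4 (0.987) and the phosphatase Ptpn3 (0.977). Tns4 had 28.9 FPKM in T-ALL and at most 0.529 in the other leukaemias, against 0.131 to 3.32 in the normal libraries, so it shares the high value of T-ALL. Among the 5 genes, Tcf7 and Bcl11b had r = 0.969, Tcf7 and Gata3 0.921, Gata3 and Bcl11b 0.918, and Tcf7 and Lef1 0.802. Zbtb16 had the lowest values, 0.29 to 0.70 with the other 4.

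Other genes of the pathway were taken from lists. Of 18 T-lineage regulators 15 were in the table, of which 1 was called higher and 6 lower in T-ALL, where 22.1% of all genes were higher and 24.0% lower, with a list median of -0.70 beside 0.03 over all genes. Gfi1, a transcriptional repressor of blood cells, had 236.0 FPKM in T-ALL and 19.9 in normal T cells. Satb1, a chromatin organiser, had 6.61 FPKM in T-ALL and 106.4 in normal T cells. Bach2, a repressor that restrains effector differentiation, had 0.121 FPKM in T-ALL and 44.2 in normal T cells. It had 141.5 FPKM in normal B cells, and the 7 B-cell markers, which summed to 6.02 FPKM in T-ALL and 643.1 in normal T cells, were also lower in T-ALL, and their part in the Bach2 difference was not tested. In AUL 4 were called higher and 6 lower against normal lineage-negative cells, where 13.6% of all genes were higher and 29.5% lower (list median -0.34, all genes -0.18), and Tox had 20.1 FPKM in AUL and 1.17 in those cells. In B-ALL 1 of 15 was higher and 7 lower (list median -0.95, all genes -0.02), where 18.2% of all genes were higher and 21.9% lower. In AML 4 of 13 were higher and 6 lower (list median -0.67, all genes 0.56), where 43.3% of all genes were higher and 26.7% lower. None of the 15 listed T-lineage regulators passed the limma fit over the gates, where 3.69% of all genes fitted passed.

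Among the 10 tested TCF/LEF co-factors and Wnt pathway genes, 0 were called higher and 4 lower in T-ALL (list median -0.61, all genes 0.03). Of all genes tested there, 22.1% were higher and 24.0% lower. Axin2, a feedback inhibitor of Wnt signalling that TCF/LEF proteins induce, had 13.1 FPKM in T-ALL and 32.1 in normal T cells. In AUL it had 14.6 FPKM, against 3.56 in normal lineage-negative cells. Tcf7l1, another member of the TCF/LEF family, had 6.69 FPKM in T-ALL and 1.35 in normal T cells, and 8.15 in AUL and 1.26 in normal lineage-negative cells. Among relatives of the other members, Gata2, a factor of progenitors, mast cells and basophils, had 0.0836 FPKM in T-ALL and 51.8 in normal T cells, and 0.473 in AUL and 141.2 in normal lineage-negative cells. The basophil and mast-cell markers summed to 538.3 FPKM in normal T cells and 2685 FPKM in normal lineage-negative cells, and their part in the Gata2 difference was not tested. Bcl11a, the paralogue of Bcl11b, had 0.251 FPKM in T-ALL, 0.128 in AUL, 31.8 in B-ALL and 20.9 in AML, against 12.5 in normal T cells, 34.5 in normal lineage-negative cells, 109.0 in normal B cells and 5.51 in normal myeloid cells. The B-cell markers summed to 6.02 FPKM in T-ALL, 3.79 in AUL and 1812 in B-ALL, against 643.1 in normal T cells, 681.9 in normal lineage-negative cells and 4275 in normal B cells, and their part in the Bcl11a differences was not tested.

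Of 11 helper, effector and innate-like regulators tested between AUL and T-ALL, the leukaemias with the highest Tcf7, 3 were called higher and 2 lower in AUL, where 21.0% of all genes were called. Eomes, a T-box factor of memory T cells and natural killer cells, had 86.7 FPKM in AUL, 20.9 in B-ALL and 0.0430 in T-ALL, against 6.70 in normal lineage-negative cells, 5.68 in normal B cells and 46.6 in normal T cells. Tbx21, encoding T-bet, had 32.9 FPKM in T-ALL and 30.5 in normal T cells, and 27.5 in AUL and 3.62 in normal lineage-negative cells. Id2 had 6.49 FPKM in T-ALL and 170.3 in normal T cells, and 12.9 in AUL and 39.9 in normal lineage-negative cells. Id3, which like Id2 encodes an inhibitor of E proteins, had 150.8 FPKM in T-ALL and 46.8 in normal T cells, and 107.5 in AUL and 13.3 in normal lineage-negative cells. Of 7 natural killer cell markers, 4 were at 0 in T-ALL (Klrd1, Klrk1, Klra8 and Klre1) and none in normal T cells, where Klrd1 had 252.8 FPKM, Klrk1 133.5 and Klre1 69.4. The summed level of the 7 was 741.1 FPKM in T-ALL, of which Gzma made up 731.7, and 623.6 FPKM in normal T cells, and their part in the Eomes and Id2 differences was not tested. Of 14 list members tested in T-ALL, 1 was called higher and 7 lower, where 22.1% of all genes were higher and 24.0% lower. Of 12 tested in AUL against normal lineage-negative cells 6 were higher and 3 lower, where 13.6% of all genes were higher and 29.5% lower. Of the T-cell identity genes tested, 10 of 18 were higher and 6 lower in B-ALL, where 18.2% of all genes were higher and 21.9% lower. In AUL 14 of 17 were higher and 3 lower, and in AML 8 of 16 were higher and 2 lower, where 43.3% of all genes were higher and 26.7% lower. In T-ALL 0 of 18 were higher and 7 lower (list median -0.63, all genes 0.03), where 22.1% of all genes were higher and 24.0% lower. The regulators of other lineages were mostly lower in every gate, with 6 of 9 lower and 1 higher in B-ALL, 8 of 10 lower and 1 higher in T-ALL, 8 of 11 lower and 1 higher in AML, and 11 of 11 lower in AUL. Among all genes the share called lower was 29.5% in AUL, 26.7% in AML, 24.0% in T-ALL and 21.9% in B-ALL. B-cell markers summed to 643.1 FPKM in normal T cells and 681.9 in normal lineage-negative cells, against 6.02 in T-ALL and 3.79 in AUL. Basophil and mast-cell markers summed to 538.3 FPKM in normal T cells and 2685 in normal lineage-negative cells. Promyelocyte markers summed to 10647 FPKM in normal lineage-negative cells and 103.8 in AUL, and neutrophil markers to 7626 and 872.0. In AML promyelocyte markers were higher than in normal myeloid cells (8363 against 1298 FPKM) and neutrophil markers lower (5792 against 74053). Plasmacytoid dendritic cell markers summed to 1369 FPKM in normal B cells and 119.8 in B-ALL, and neutrophil markers to 1023 and 4351. The part of these markers in the differences of the other-lineage regulators was not tested.

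**Figure D5:**
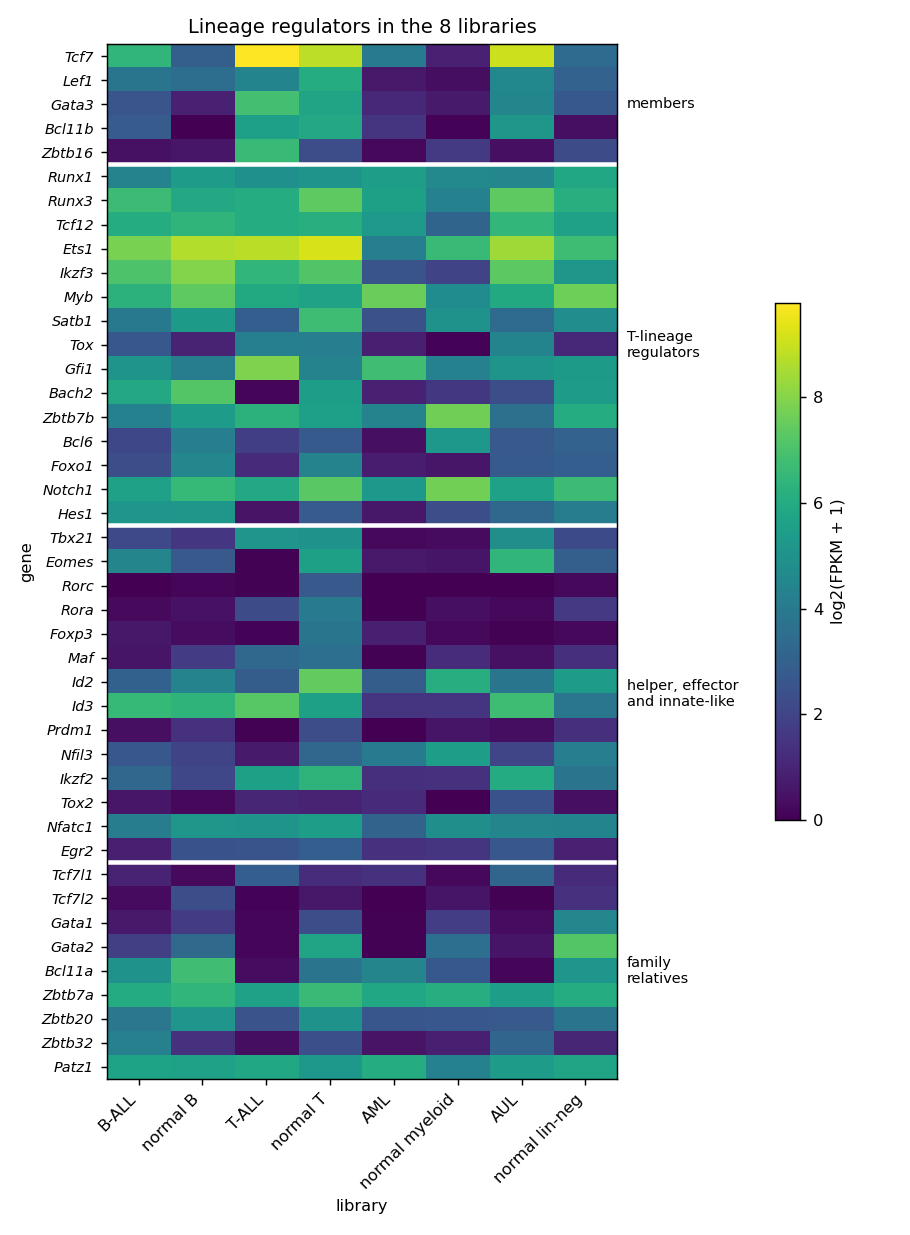
Log2(FPKM + 1) of the 5 genes and of 3 context lists (rows) in the 8 libraries (columns, each leukaemia left of its normal counterpart), with white lines between lists and colour from dark (low) to yellow (high). The T-ALL column shows high Zbtb16, Gfi1 and Id3 (98.4, 236.0 and 150.8 FPKM), and the AUL column high Tcf7 and Eomes (522.5 and 86.7 FPKM).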

How the data were processed

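Per the labels' protocols, RNA was extracted from sorted cells with Trizol, mRNA was enriched with oligo(dT) beads, cDNA was random-primed, and 150-base read pairs came from a HiSeq instrument. Per the submitters' processing notes, mm10, STAR, HTSeq and edgeR were used, with versions not given in the sources used here. The authors deposited FPKM values for 16434 genes in 8 libraries. The rule by which genes entered the table is not stated. Shares of genes therefore refer to listed genes.

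From the deposited FPKM, library totals and fragments per gene were recovered with mean GENCODE vM21 transcript lengths (16380 genes). Values were whole within 0.02 of a fragment for 94.1% to 94.6% of single-transcript values and 83.9% to 85.1% of all. No count test was run on these fragments. They give the counting intervals only.

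Differences are of log2(FPKM + 1), which understates changes of low genes. limma 3.58.1 (R 4.3.3, eBayes with a trend) was fitted to genes reaching 1 FPKM in 2 or more libraries, blocked on the gate (3 residual degrees of freedom) and Benjamini-Hochberg adjustment at 0.05. The gate pairs the libraries, not an animal or replicate number, so p-values measure the spread between gates. Python 3.11.15 (pandas 2.3.3, numpy 2.4.6, scipy 1.17.1) was used for the rest, and scripts were tested on simulated data. Alternatives were the pseudocount, the scaling, the minimum FPKM, the block and leaving out each gate. Likeness was ranked over genes with at least 10 FPKM in some library, 5 genes per member. Left out were T-cell receptor variable segments, alpha and beta joining segments, names starting Igh, Igk or Igl, and predicted or clone-named genes. Gamma joining segments such as Trgj2 were kept. The members, lists and rules were chosen with earlier results of these data known.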

Additional observations from a re-analysis of the deposited data

Results flagged for a closer look

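Lef1 and Zbtb16 differed from their normal counterparts in opposite directions in different gates. Lef1 differed by -1.66 in T-ALL against normal T cells and by 1.49 in AUL against normal lineage-negative cells, on the log2(FPKM + 1) scale. Zbtb16 differed by 4.32 in T-ALL against normal T cells, by -1.46 in AML against normal myeloid cells and by -1.89 in AUL against normal lineage-negative cells. With 1 library per group, the difference between gates was not tested.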

How the results depend on the processing

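A pseudocount of 0.1 or median-ratio scaling changed 1 call of 60 differences of the 5 genes within single comparisons (Gata3 in T-ALL) and the sign of none. A minimum of 5 FPKM in the higher library removed 4 calls of the 5 genes, those of Bcl11b and Zbtb16 in AML and of Zbtb16 in AUL against normal lineage-negative cells and against normal T cells. Median-ratio scaling brought Gata3 in AML to 0.01 and Lef1 in AML to 0.06. With at least 5 FPKM in the higher library, 1325 genes were called in AUL against T-ALL, against 2033 with at least 1 FPKM. The limma fit over the gates depended on most choices. It called 408 genes, 839 with a pseudocount of 0.1, 912 with median-ratio scaling, 3 with no minimum FPKM and 41 with no gate block. Leaving out 1 gate gave 0 to 173 genes, with the 0 by limma without the myeloid gate, where 3552 of 10643 genes had an unadjusted p under 0.05. Tcf7 passed with a pseudocount of 0.1 (adjusted p = 0.0337) and median-ratio scaling (0.0498), and missed with no minimum FPKM (0.102) and no gate block (0.207). In the fits without 1 gate, Tcf7 had 0.0606 to 0.0986, and its difference was 2.53 without the lineage-negative gate and 4.08 without the T gate. Zbtb16, 0.21 in the fit, was -0.55 with a pseudocount of 0.1, and -1.16 (without the T gate) to 0.91 (without the lineage-negative gate) when 1 gate was left out. Lef1, 0.10 in the fit, was -0.36 (without the lineage-negative gate) to 0.69 (without the T gate). Leaving out a gate removes libraries, lowers the residual degrees of freedom and changes the genes fitted, all at once. The cause of these changes was not tested. Bcl11b in normal B cells rests on 2 fragments, which limits its fold there.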
